A study of Mus musculus with 12 samples.

Results

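Replication origin licensing is the loading of the MCM helicase onto DNA before S phase, and it was described here through 10 mouse genes: the core helicase subunits Mcm2, Mcm3, Mcm4, Mcm5, Mcm6 and Mcm7, the loading factors Cdc6 and Cdt1, and the helicase activation factors Mcm10 and Cdc45. The genes were chosen by name, as the rows of the count table whose identifiers carry these symbols. All 10 were found among 78298 rows, and all 10 were among the 22190 genes with enough counts to be tested. The list was drawn up when cell cycle genes were already known to be higher in these tumours, so the level of the members in tumour against normal tissue is given below as a description, and the calls of the model fitted over all genes are not read as support for it.

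RNA was sequenced from pieces of mouse lung in 12 libraries, 3 in each of 4 groups. Macroscopic tumours labelled LLC and normal adjacent lung were each dissected after VEH or after HDM, which the series title spells out as house dust mite, given chronically. VEH and LLC are kept as the labels write them, since their meaning, like the strain, sex, age and genotype of the mice, is not given in the sources used here. All 12 libraries carry 1 batch label. Nothing says whether the 3 libraries of a group came from separate animals, so the p-values measure only the spread between these samples, which may be technical.

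The libraries held 20608682 to 32765364 counts in genes. Levels are given as CPM, the count of a gene relative to the size of its library, after scaling by the trimmed mean of M-values (TMM), which adjusts for differences in library composition. Among counts of 1 to 9, even numbers made up 67.1% to 71.0%, so the counts are not single independent units. The labelled tissue was checked against surfactant protein C (Sftpc), a marker of alveolar type II cells, which was at 8497 to 25182 CPM in normal libraries and at 3.12 to 4680.0 CPM in tumour libraries. The library names carry 6 prefixes that each join 1 normal and 1 tumour library, and 2 of these prefixes join libraries of different treatment labels: the prefix of the second normal VEH library recurs on the second tumour HDM library, and that of the third normal HDM library on the third tumour VEH library. For the licensing genes, the counts of calls and the medians of the fitted comparisons are therefore also given without these 4 libraries, as are the calls over the pathway lists. Medians of single pathway lists rest on all libraries unless stated. Normal VEH replicate 2, 1 of the 4, stood apart in the genes described here, and values without it stand beside the fold changes it moved most.

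Licensing starts when the origin recognition complex binds DNA. Cdc6 then joins it, Cdt1 brings the ring made of the core MCM subunits, and a pair of rings is closed around the double strand, where they stay inactive until S phase. Kinases and firing factors then recruit Cdc45 and the GINS complex to each ring, and Mcm10 takes part in making the active helicase. Licensing is held back outside its window by geminin (Gmnn), which binds Cdt1, and by ubiquitin ligases that destroy Cdt1. Cells that leave the cell cycle lose most of these proteins, and MCM proteins are widely used as a mark of proliferating cells in tissue sections.

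The 6 core subunits were each higher in every tumour library than in every normal library. The pieces are bulk tissue, in which fewer cells of a type and less RNA per cell cannot be told apart. Mcm2 (ENSMUSG00000002870; chromosome 6, 88860452 to 88875762, minus strand, 16 exons in the canonical transcript; GRCm39 throughout) encodes a subunit whose tail also binds histones. In replicates 1, 2 and 3, in that order here and below, normal VEH lung had 19.5, 27.4 and 20.8 CPM of Mcm2, and normal HDM lung had 18.0, 16.6 and 19.9 CPM. In tumours Mcm2 was at 121, 96.7 and 133 CPM under VEH and at 112, 115 and 143 CPM under HDM. The lowest tumour library was thus 3.52 times the highest normal library for this gene.

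Mcm3 (ENSMUSG00000041859; chromosome 1, 20870791 to 20890536, minus strand) and Mcm5 encode neighbours in the ring, and the interface of Mcm5 with Mcm2 is the gate through which DNA enters. Mcm3 was at 23.5, 35.5 and 19.1 CPM in normal VEH, at 25.6, 18.4 and 23.9 CPM in normal HDM, at 136, 112 and 166 CPM in tumour VEH, and at 125, 116 and 147 CPM in tumour HDM. Mcm5 (ENSMUSG00000005410; chromosome 8, 75836140 to 75856231, plus strand) was at 10.3, 22.7 and 10.1 CPM in normal VEH and at 12.9, 13.1 and 6.55 CPM in normal HDM. Its tumour levels were 119, 83.7 and 130.3 CPM under VEH and 98.1, 74.7 and 147 CPM under HDM. Mcm5 differed most between tissues among the core subunits, with the median tumour library at 9.37 times the median normal library.

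Mcm4, Mcm6 and Mcm7 encode the subunits that form a stable subcomplex with helicase activity of its own. Mcm4 (ENSMUSG00000022673; chromosome 16, 15440211 to 15455264, minus strand) was at 28.2, 38.6 and 29.5 CPM in normal VEH, at 27.03, 26.4 and 26.0 CPM in normal HDM, at 113, 89.1 and 119.8 CPM in tumour VEH, and at 114, 104 and 129 CPM in tumour HDM. The gap between tissues was the smallest of the 10 genes here, a ratio of medians of 4.11. Mcm6 (ENSMUSG00000026355; chromosome 1, 128259311 to 128287516, minus strand) was at 27.02, 46.6 and 30.3 CPM and at 31.2, 31.2 and 28.4 CPM in normal VEH and HDM, and at 182, 142 and 221 CPM and 175, 148 and 199 CPM in tumour VEH and HDM. Mcm7 (ENSMUSG00000029730; chromosome 5, 138162844 to 138170684, minus strand) was at 19.2, 43.1 and 25.8 CPM in normal VEH, at 21.3, 23.1 and 21.7 CPM in normal HDM, at 129, 135 and 144 CPM in tumour VEH, and at 106, 117 and 144 CPM in tumour HDM. No normal library of either gene reached a tumour library, and the highest normal library in both was VEH replicate 2.

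**Figure D1:**
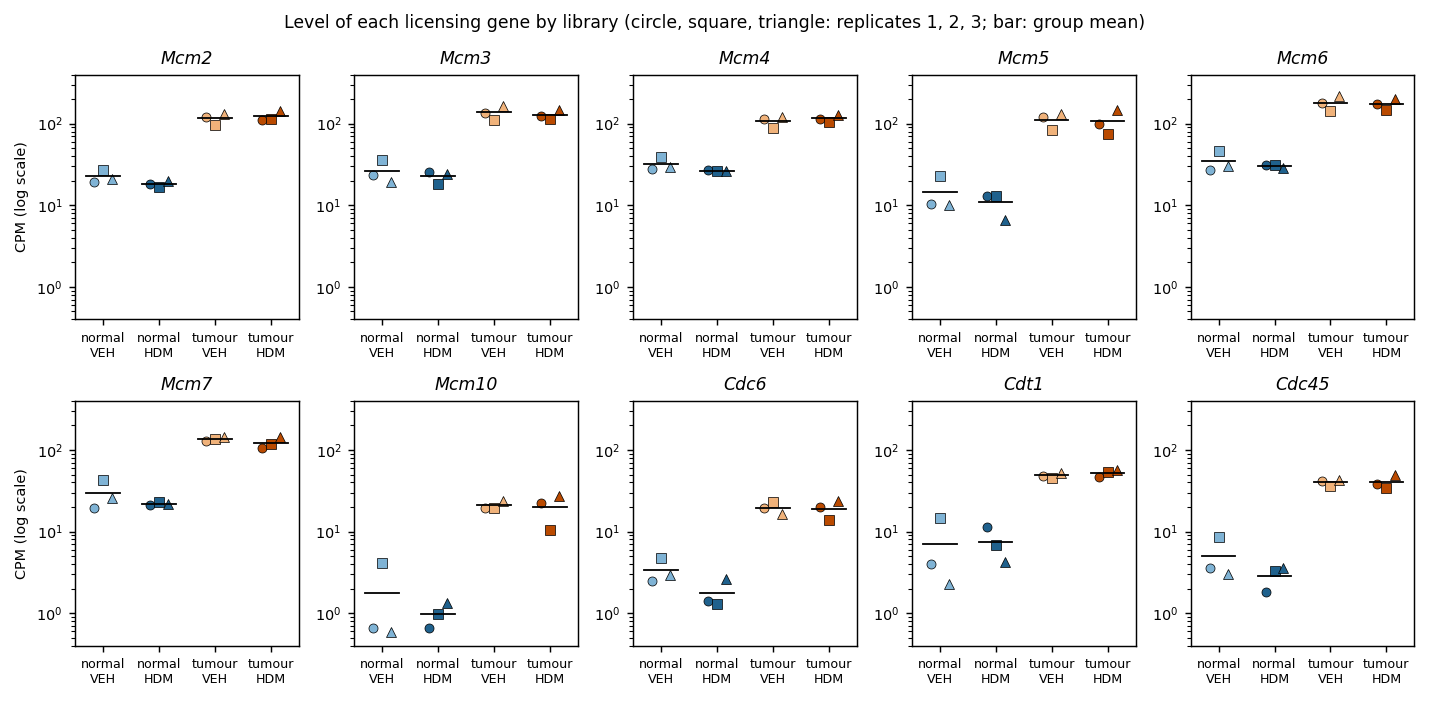
CPM on a log axis for each of the 10 genes in the 12 libraries, by group, with the group mean as a bar. In every panel the 6 tumour libraries lie above the 6 normal libraries, and the highest normal library is VEH replicate 2.

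Both loading factors were higher in every tumour library than in every normal library. Cdc6 (ENSMUSG00000017499; chromosome 11, 98798507 to 98814766, plus strand), the ATPase that completes the loading platform, was at 2.46, 4.78 and 2.95 CPM in normal VEH and at 1.39, 1.28 and 2.65 CPM in normal HDM. In tumours it was at 19.2, 23.0 and 16.5 CPM under VEH and at 20.2, 13.7 and 23.5 CPM under HDM. Cdt1 (ENSMUSG00000006585; chromosome 8, 123294703 to 123300293, plus strand), the factor that carries the MCM ring to the origin, was at 48.4, 45.5 and 52.5 CPM in tumour VEH and at 47.3, 53.0 and 57.4 CPM in tumour HDM, the narrowest spread of the non-core genes in tumours relative to the mean. Its normal levels were wide: 4.02, 14.6 and 2.27 CPM under VEH and 11.3, 6.95 and 4.27 CPM under HDM. The normal libraries with the highest Cdt1 were VEH replicate 2 and HDM replicates 1 and 2. They also had the highest Cd68, a macrophage marker, at 160.5, 176 and 141 CPM against 8.84 to 16.5 CPM in the other normal libraries. Summed macrophage and monocyte markers followed, at 578, 627 and 495 against 129 to 174 CPM, although Marco was lowest in HDM replicate 1, at 1.80 CPM. The split was not specific to macrophages. Summed B and plasma cell markers were at 647, 1168 and 710 against 35.5 to 55.3 CPM in the same libraries. Summed neutrophil markers were at 755, 508 and 72.2 against 17.8 to 37.9 CPM. The part of these cells in the Cdt1 spread was not tested.

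Of the activation factors, Mcm10 (ENSMUSG00000026669; chromosome 2, 4994516 to 5017629, minus strand), which binds the loaded helicase at firing and is no ring subunit, was at 0.657, 4.09 and 0.589 CPM in normal VEH and at 0.655, 0.982 and 1.33 CPM in normal HDM, down to 14 counts in a library. Tumour levels were 19.6, 19.6 and 23.8 CPM under VEH and 22.2, 10.3 and 27.2 CPM under HDM. Mcm10 thus had the widest gap between the tissues, a ratio of medians of 25.5, although its lowest tumour library was only 2.52 times its highest normal library. Cdc45 (ENSMUSG00000000028; chromosome 16, 18599195 to 18631551, minus strand), the helicase cofactor, was at 3.53, 8.46 and 3.03 CPM and at 1.80, 3.25 and 3.61 CPM in normal VEH and HDM, and at 42.0, 36.6 and 43.1 CPM and 38.7, 34.2 and 49.3 CPM in tumour VEH and HDM. For Cdc45 the lowest tumour library was 4.04 times the highest normal library, the largest such separation among the 10 genes.

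The order of the 4 groups was the same for every gene at the level of tissue: both tumour groups stood above both normal groups. Within a tissue the VEH and HDM groups overlapped for every gene except Mcm4 in normal lung. Per kilobase of the deposited gene length, Mcm10 and Cdc6 were the lowest of the 10 genes in all 4 groups. Normal VEH held Mcm10 at 0.231 ± 0.260 and Cdc6 at 0.650 ± 0.234 CPM per kilobase (mean ± SD, n = 3), and tumour VEH held them at 2.73 ± 0.316 and 3.74 ± 0.621. These 2 genes were also lowest when the length of the canonical transcript was used, whereas the order among the core subunits changed with the length used and is not read here.

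The promoters of the licensing genes were searched because these genes were higher together in the tumours, and because E2F factors are the known regulators of licensing genes. Only the windows with an E2F word are printed, so Mcm2 and Mcm7 of the core are not among them. The window ran from 250 bases before to 30 bases after the start of the canonical GENCODE transcript, 280 bases in all, on the GRCm39 genome. Windows were searched on both strands for 4 common E2F words, TTTCCCGC, TTTGGCGC, TTTCGCGC and TTTGCCGC. A match was found in 4 of the 10 licensing genes (40%), against 560 of 21757 protein-coding promoters (2.57%), and each is printed 5′ to 3′ on the gene's strand with the E2F words in capitals. The windows are Mcm3 at chr1:20890507-20890786 (minus strand), Mcm4 at chr16:15455235-15455514 (minus), Mcm5 at chr8:75835890-75836169 (plus) and Mcm6 at chr1:128287423-128287702 (minus).
Mcm3: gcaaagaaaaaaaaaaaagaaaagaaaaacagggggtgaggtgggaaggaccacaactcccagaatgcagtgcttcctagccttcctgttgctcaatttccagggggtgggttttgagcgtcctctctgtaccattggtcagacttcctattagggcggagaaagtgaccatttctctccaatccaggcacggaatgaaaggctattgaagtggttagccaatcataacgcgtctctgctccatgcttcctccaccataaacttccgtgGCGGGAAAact
Mcm4: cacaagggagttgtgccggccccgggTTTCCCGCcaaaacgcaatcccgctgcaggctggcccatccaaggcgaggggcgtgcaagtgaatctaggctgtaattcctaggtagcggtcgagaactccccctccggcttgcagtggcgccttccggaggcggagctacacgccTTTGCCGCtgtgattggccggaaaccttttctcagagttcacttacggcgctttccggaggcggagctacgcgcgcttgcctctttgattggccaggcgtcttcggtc
Mcm5: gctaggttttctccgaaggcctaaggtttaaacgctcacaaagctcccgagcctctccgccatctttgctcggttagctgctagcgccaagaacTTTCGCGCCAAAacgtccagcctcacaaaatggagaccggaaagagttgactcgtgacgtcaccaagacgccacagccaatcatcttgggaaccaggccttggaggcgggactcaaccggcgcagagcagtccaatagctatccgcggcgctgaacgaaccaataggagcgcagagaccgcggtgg
Mcm6: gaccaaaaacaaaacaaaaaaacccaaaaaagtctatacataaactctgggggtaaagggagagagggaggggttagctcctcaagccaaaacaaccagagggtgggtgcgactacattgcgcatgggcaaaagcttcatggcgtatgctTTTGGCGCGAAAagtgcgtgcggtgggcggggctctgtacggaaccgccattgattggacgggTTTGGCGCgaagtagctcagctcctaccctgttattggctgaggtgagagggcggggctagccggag
Counting the first transcribed base as 1, with no position 0, the word of Mcm3 starts at 20, inside the transcript. In Mcm4 the words start at -224 and -78. In Mcm5 they start at -156 and -152, on opposite strands, and overlap, so that the capitals form 1 longer run. Mcm6 has words at -100, -96 and -37, of which the first and second overlap in the same way. The share in the licensing genes may be read beside that in the lists described further on: 6 of 13 (46.2%) for the E2F and pocket protein genes and 1 of 10 (10%) for the mitotic genes.

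The other 6 licensing genes held none of these exact words in this window, which says nothing about binding by E2F. CCAAT, the word bound by NF-Y, was present on either strand in 7 of 10 (70%), in Mcm2, Mcm3, Mcm4, Mcm5, Mcm6, Mcm10 and Cdc6, against 38.8% of all promoters and 9 of 10 mitotic genes. The cell cycle homology region words TTTGAA and TTCGAA, known from promoters of genes of mitosis, were found in 1 of 10 licensing genes (Mcm2), in 5 of 10 mitotic genes and in 18% of all promoters. These are matches of letters and not mapped sites. The GC content of the windows had a median of 54.1% in the licensing genes and 53.9% in all promoters.

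Fold changes were fitted with edgeR over all 22190 genes and all 12 libraries, and a gene was called at a Benjamini-Hochberg adjusted p below 0.05. In tumour against normal lung under VEH, 10 of 10 licensing genes were called higher, where 18.2% of all genes tested were called higher, and 10 of 10 did not overlap between the groups, where 23.9% of all genes did not overlap in that direction. Under HDM the same counts were 10 of 10 called higher, against 23% of all genes, and 10 of 10 without overlap, against 29.6%. The median log2 fold change was 2.46 under VEH (5.52-fold) and 2.78 under HDM (6.89-fold), where the median of all genes tested was -0.11 and -0.08. Since the list was drawn up from genes known to be higher in tumours, nothing is read from these counts.

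Log2 fold changes of the core subunits ran from 1.74 ± 0.16 (SE) for Mcm4 to 2.95 ± 0.41 for Mcm5 under VEH, and from 2.13 ± 0.16 for Mcm4 to 3.30 ± 0.42 for Mcm5 under HDM. Mcm2 was higher by 2.37 ± 0.18 and 2.76 ± 0.19, Mcm3 by 2.41 ± 0.25 and 2.51 ± 0.25, Mcm6 by 2.39 ± 0.23 and 2.52 ± 0.23, and Mcm7 by 2.21 ± 0.25 and 2.47 ± 0.26 under VEH and HDM. These 4 subunits lay within the standard errors of one another under VEH, so the core moved by about the same factor apart from its extremes. The loading factors stood at 2.52 ± 0.37 and 3.43 ± 0.39 for Cdc6 and at 2.80 ± 0.60 and 2.81 ± 0.60 for Cdt1. The activation factors stood at 3.54 ± 0.71 and 4.32 ± 0.74 for Mcm10 and at 3.01 ± 0.40 and 3.81 ± 0.42 for Cdc45. The standard errors of Mcm10 were wide enough to reach those of Mcm5 but of no other core gene.

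The size of these values depended on normal VEH replicate 2 in 3 of the genes. Without that library the log2 fold change under VEH was 5.07 for Mcm10, 3.95 for Cdt1 and 3.63 for Cdc45, so that Cdt1 lay above Cdc45, and the other 7 genes moved by less than 1.5-fold, to 1.90 for Mcm4 and up to 3.44 for Mcm5. Without the 4 libraries of conflicting prefixes the same 3 genes stood at 5.07, 4.00 and 3.68 under VEH. Under HDM that fit gave 5.01 for Mcm10 and 4.12 for Cdc6, both over 1.5-fold above the values from all libraries, and 4.23 for Cdc45 and 2.61 for Cdt1. The median over the 10 genes in that fit was 2.86 under VEH and 2.85 under HDM. In each of these fits 10 of 10 genes were called higher.

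**Figure D2:**
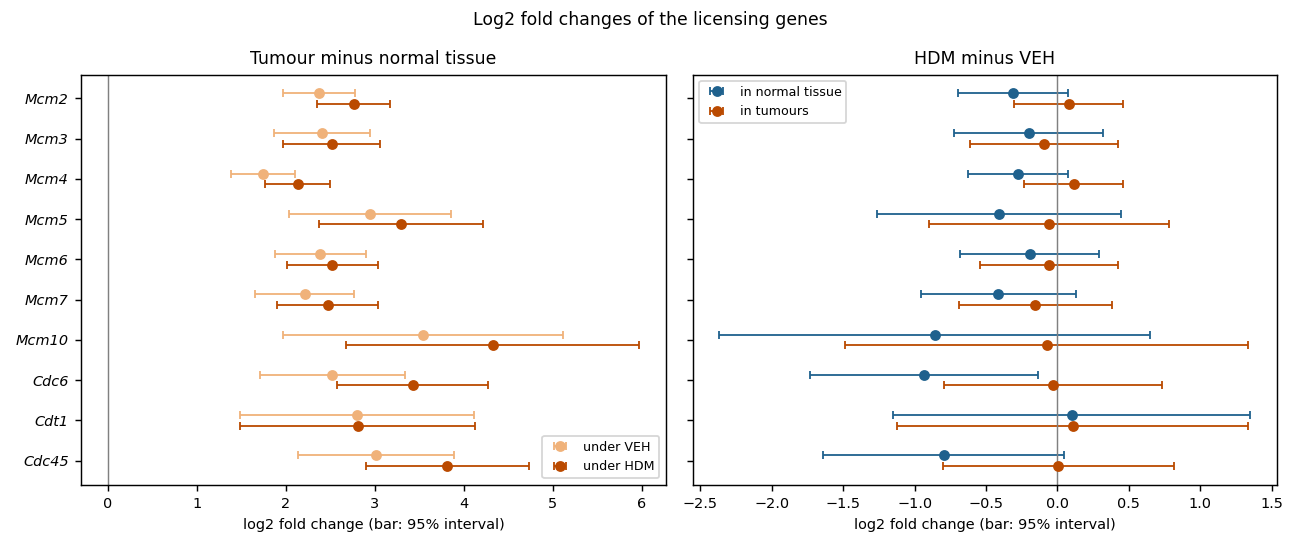
Log2 fold changes of the 10 genes with 95% intervals, tumour minus normal on the left (under VEH and under HDM) and HDM minus VEH on the right (in normal lung and in tumours). On the left all intervals lie above 0, from a fold change of 1.74 for Mcm4 under VEH to 4.32 for Mcm10 under HDM, and on the right all but that of Cdc6 in normal lung include 0.

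Because the core subunits form a ring in fixed proportion, their makeup was compared as the share of each gene in the summed CPM per kilobase of Mcm2 to Mcm7. The share of Mcm4 was 24.8% ± 2.7 in normal VEH and 24.4% ± 0.58 in normal HDM (mean ± SD, n = 3), against 16.5% ± 0.61 in tumour VEH and 18.5% ± 0.96 in tumour HDM. By library it ran from 21.7% to 26.5% in normal lung and from 15.9% to 19.1% in tumours, without overlap. The share of Mcm5 went the other way, at 9.44% ± 1.77 and 8.92% ± 2.87 in normal VEH and HDM against 15.3% ± 1.23 and 14.9% ± 2.73 in the tumours, and its libraries ran from 5.64% to 11.4% and from 12.2% to 17.7%. Mcm2, Mcm3, Mcm6 and Mcm7 had shares that overlapped between the tissues.

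A share of this kind depends on the gene length, and for none of the 10 genes did the deposited length equal that of the GENCODE M39 annotation. With the length of the canonical transcript the share of Mcm4 was 15.1% and 14.9% in normal VEH and HDM against 9.84% and 11.01% in tumour VEH and HDM, and that of Mcm5 was 7.11% and 6.74% against 11.3% and 11.02%. The direction for each gene was thus the same with either length. These differences follow from the members' own tumour and normal levels, so they are given with no test.

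**Figure D3:**
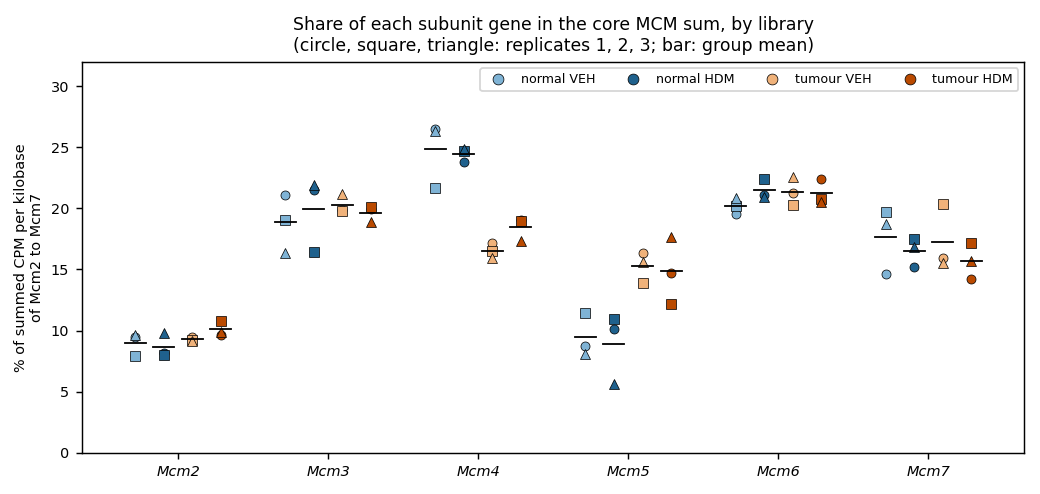
Share of each core subunit in the summed CPM per kilobase of Mcm2 to Mcm7, in percent, for each library by group, with group means as bars. The mean share of Mcm4 is 24.8% and 24.4% in normal VEH and HDM and 16.5% and 18.5% in the tumours, that of Mcm5 is 9.44% and 8.92% and then 15.3% and 14.9%, and the other subunits overlap between tissues.

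Of the other 4 genes, only Cdc45 separated between the tissues relative to the ring. Cdc45 stood at 9.74% to 29.2% of the mean core level per kilobase in normal lung and at 35.2% to 41.6% in tumours, without overlap. Mcm10 stood at 1.48% to 6.44% in normal libraries and at 5.25% to 10.4% in tumours, which overlapped through normal VEH replicate 2 and tumour HDM replicate 2. Cdc6, at 4.94% to 11.1% and 9.06% to 17.5%, and Cdt1, at 13.9% to 68.2% and 47.9% to 66.0%, overlapped as well. Set against its inhibitor, Cdt1 had a ratio to Gmnn per kilobase of 0.0628 to 0.363 in normal VEH, 0.114 to 0.541 in normal HDM, 0.801 to 1.02 in tumour VEH and 0.932 to 1.30 in tumour HDM, so the highest normal ratio lay below the lowest tumour ratio.

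No licensing gene passed the test between treatments in tumours. Of the 10 genes 0 were called in tumour HDM against tumour VEH, 0 had an unadjusted p below 0.05 in edgeR, and 0 were called by DESeq2. Over all genes edgeR called 21 (0.0946%), 16.7% had an unadjusted p below 0.05, and DESeq2 called 1308. The tumour libraries of the 2 treatments overlapped for 10 of 10 members, where 11.3% of all genes did not overlap with HDM higher and 10.7% with HDM lower. The median log2 fold change of the members was -0.05, where that of all genes was -0.03. Values ran from -0.16 ± 0.24 for Mcm7 to 0.11 ± 0.16 for Mcm4, with edgeR adjusted p from 0.751 for Mcm4 to 0.999 for Cdc45. Without the 4 libraries of conflicting prefixes the median was 0.19, and with the prefix as a block it was -0.55, with 0 members called in either fit. The block fit ties the treatments within a tissue only through the prefixes that join different treatment labels, so it cannot check those labels.

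The precision differed by gene. The 95% interval of the log2 change in tumours ran from -0.30 to 0.46 for Mcm2 and from -0.23 to 0.46 for Mcm4, the 2 narrowest. It ran from -0.61 to 0.42 for Mcm3, from -0.90 to 0.78 for Mcm5, from -0.54 to 0.43 for Mcm6 and from -0.69 to 0.38 for Mcm7. For Cdc6 it ran from -0.80 to 0.73, for Cdc45 from -0.80 to 0.81, for Cdt1 from -1.12 to 1.33 and for Mcm10 from -1.48 to 1.33. These bounds hold for the model over all 12 libraries with no block, and they are widest for Cdt1 and Mcm10. With the prefix as a block, Cdt1 in tumours was at -1.58, outside the bounds given here.

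In normal lung under HDM 9 of the 10 genes had a negative log2 change and 0 were called, where 0 of all genes tested were called by edgeR and 38 by DESeq2. The median was -0.36, against -0.01 for all genes. Cdc6, at -0.94 ± 0.36 with an interval from -1.73 to -0.14, had the lowest p, 0.0256 before and 0.887 after edgeR's Benjamini-Hochberg adjustment, and was the only member below 0.05 before adjustment, where 5.54% of all genes were. Mcm10 stood at -0.86 ± 0.68, Cdc45 at -0.80 ± 0.38, Mcm5 at -0.41 ± 0.39, Mcm7 at -0.41 ± 0.24, Mcm2 at -0.31 ± 0.17, Mcm4 at -0.28 ± 0.16, and Mcm3 and Mcm6 at -0.20 ± 0.24 and -0.20 ± 0.22. Cdt1 was at 0.10 ± 0.56. Mcm4 was the only member whose 3 HDM libraries all lay below the 3 VEH libraries, at 26.0 to 27.03 against 28.2 to 38.6 CPM, where 5.85% of all genes did not overlap in that direction and 4.47% did not in the other.

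Several of these values depended on 1 library. Normal VEH replicate 2 was the highest of the 6 normal libraries in 10 of 10 licensing genes, with a summed level of 246 CPM over the 10 genes against 138 to 151 CPM in the other 5. Without it Mcm3, Mcm5, Mcm6 and Mcm10 changed sign, to 0.09, 0.08, 0.08 and 0.67, and Cdt1 was at 1.25. Cdc6 stayed negative whichever library was left out, between -1.36 and -0.60, as did Cdc45, Mcm2, Mcm4 and Mcm7. Without it the median log2 change of the members in normal lung was 0.03, and without the 4 libraries of conflicting prefixes it was 0.02. With the prefix as a block, under the limit given for tumours, it was -0.65, again with 0 members called. The mean log2 CPM of the members was 3.44 ± 0.66 in normal VEH and 3.14 ± 0.018 in normal HDM (SD, n = 3). It was 6.16 ± 0.15 in tumour VEH and 6.13 ± 0.28 in tumour HDM. The spread of this mean in normal VEH was thus many times that in normal HDM. Single members spread more in normal HDM, where the SD was 1.96% of the mean CPM for Mcm4 and up to 47.3% for Cdt1. In normal VEH it was 17.7% for Mcm4 and up to 113% for Mcm10.

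The same library stood apart in proliferation and in other cell markers. Its Mki67, a marker of cycling cells, was at 33.7 CPM against 7.56 to 12.8 CPM in the other normal libraries, and its mean log2 CPM over the 10 mitotic genes was 4.09 against 1.85 to 2.25. Its collagen III (Col3a1) was at 1414 CPM and its lumican (Lum) at 109.5 CPM, where the other normal libraries had 4.30 to 23.5 CPM of Lum. Dcn was likewise high, at 920 CPM against 145 to 416 CPM. The remaining fibroblast markers lay within the range of the other normal libraries. Col1a1 was at 150 CPM against 89.0 to 523 CPM, and Pdgfra at 80.7 CPM against 66.9 to 193 CPM. The summed fibroblast markers were at 2674 CPM against 647 to 1574 CPM, the neutrophil markers at 755 CPM against 17.8 to 508 CPM, and the endothelial markers at 1497 CPM against 2639.6 to 3152 CPM. Normal HDM replicate 1 had comparable sums for neutrophils, B and plasma cells and macrophages, with 508, 1168 and 627 CPM against 755, 647 and 578 CPM, while its summed licensing genes were at 151 CPM. The part of these cells in the level of the members was not tested.

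Whether the tissue difference depended on HDM was tested by the interaction. All 10 estimates were positive, from 0.01 ± 0.80 for Cdt1 to 0.90 ± 0.50 for Cdc6, with a median of 0.37, and 0 were called by edgeR (adjusted p 0.568 to 1.00, where 0 of all genes were called and 9.39% had an unadjusted p below 0.05, a level that 0 of the 10 members reached). The next largest were Cdc45 at 0.80 ± 0.53 and Mcm10 at 0.78 ± 0.93. Without the 4 libraries of conflicting prefixes the median was 0.08, and without normal VEH replicate 2 it was -0.14. A difference between the treatments in the tumour to normal ratio of the licensing genes was not detectable here, and the sign of the median changed without that library.

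Among the tumours, libraries differed in most of the members at once, though under VEH Cdc6 was highest in replicate 2 and lowest in replicate 3. HDM replicate 3 was highest of its group in 10 of 10 genes and highest of all 6 tumours in 8 of 10, with 1067 CPM over the members. VEH replicate 3 was highest of its group in 9 of 10, at 1049.9 CPM, and VEH replicate 2 and HDM replicate 2 were lowest of their groups in 8 and 7 genes, at 783 and 786 CPM. The other 2 tumours were at 929 and 858 CPM. The mitotic mean log2 CPM was likewise highest in HDM replicate 3, at 6.72, and lowest in HDM replicate 2, at 5.69.

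Lung markers moved along with this in part. The summed alveolar markers were at 99.1 CPM and the airway markers at 3.64 CPM in HDM replicate 3, and at 8693 and 20647 CPM in VEH replicate 2. VEH replicate 3 and HDM replicate 2 lay far apart in the licensing genes and had alveolar sums of 2471 and 2533 CPM. Over the 2 tissues, summed alveolar markers were 17516 to 43292 CPM in normal lung and 99.1 to 8693 CPM in tumours, endothelial markers 1497 to 3152 and 98.0 to 531 CPM, and fibroblast markers 647 to 2674 and 5379 to 13808 CPM. Within the fibroblast list, Col1a1 overlapped between the tissues, at 89.0 to 523 and 64.8 to 437 CPM. Pdgfra overlapped too, at 66.9 to 193 and 116 to 265 CPM. Macrophage and monocyte sums overlapped, at 129 to 627 and 323 to 715 CPM. T and NK cell sums overlapped over both treatments, at 9.98 to 29.0 and 2.09 to 59.7 CPM, but not within a treatment. Under VEH they were at 9.98 to 17.1 CPM in normal lung and higher in tumours, at 36.3 to 59.7 CPM. Under HDM they were at 18.7 to 29.0 CPM in normal lung and lower in tumours, at 2.09 to 14.8 CPM. Single T and NK markers were less uniform. Under VEH 2 of 6 were called higher, where 18.2% of all genes were, and under HDM 1 of 6 was called lower, where 28.9% were. Only Cd3g and Cd4 were lower in every HDM tumour than in every normal HDM library. Cd8a was at 4.31, 3.83 and 0.182 CPM in HDM tumours, against 1.66 to 3.17 CPM in normal HDM. No alveolar, airway, endothelial, fibroblast or immune marker was at 0 over a whole group. Of the cardiac and adipose markers Nppa was at 0 in tumour VEH and Lep in every group but normal HDM. The part of cell makeup in the members' levels was not tested.

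The other genes of the pathway were taken from lists of 50 genes in 6 groups and a comparison list of 10 mitotic genes, drawn up with earlier results of these data known. Of the 50, 34 were called higher, 4 lower and 12 in neither direction under VEH, and 38, 3 and 9 under HDM, where 18.2% and 23% of all genes tested were called higher and 20.6% and 28.9% lower. Without normal VEH replicate 2 the counts under VEH were 32, 4 and 14. Without the 4 libraries of conflicting prefixes they were 32, 1 and 17 under VEH and 35, 3 and 12 under HDM. In the origin recognition complex, which marks origins, 4 of 7 genes rose under VEH and 5 of 7 under HDM, with medians of 0.57 and 0.65. Orc1, the subunit whose level is known to follow the cell cycle, rose by 2.72 ± 0.72 (edgeR adjusted p 0.0136) and 3.51 ± 0.75 (0.00324), from 0.184 to 1.57 CPM in normal libraries to 3.79 to 6.85 CPM in tumours, and was at 3.59 under VEH without normal VEH replicate 2. Orc3 and Orc4, subunits of the stable body of the complex, were at 0.25 ± 0.13 and -0.25 ± 0.21 under VEH and at 0.08 ± 0.13 and 0.25 ± 0.21 under HDM, and did not pass. These medians lie below the 2.46 and 2.78 of the licensing genes, and that difference between lists was not tested.

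Among 9 regulators of licensing, 6 rose under VEH and 8 under HDM, with medians of 0.79 and 0.74. Dtl, the substrate receptor of the CRL4 ligase that destroys Cdt1 in S phase, had the highest values, 3.07 ± 0.57 and 4.21 ± 0.60 (edgeR adjusted p 0.00277 and 0.000416), and 3.75 under VEH without normal VEH replicate 2. Skp2, the receptor of another ligase for Cdt1, rose by 2.73 ± 0.56 and 3.51 ± 0.58. Gmnn did not pass, at 0.59 ± 0.26 (adjusted p 0.0887) and 0.58 ± 0.26 (0.0775), with 9.75 to 18.8 CPM in normal libraries and 18.4 to 28.8 CPM in tumours. Kat7, the histone acetyltransferase linked to licensing, was lowest, at 0.11 ± 0.13 under VEH, where it did not pass, and at 0.44 ± 0.13 under HDM.

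Of 12 genes of helicase activation and origin firing, 10 rose under VEH and 9 under HDM, with medians of 1.86 and 2.20. Ticrr (treslin), which brings the firing machinery to the ring, had the highest values, 2.93 ± 0.86 and 4.66 ± 0.95, and stood at 5.10 under VEH without normal VEH replicate 2. The kinase pair Cdc7 and Dbf4, which phosphorylates the MCM ring, rose by 2.27 ± 0.64 and 1.92 ± 0.35 under VEH and by 3.22 ± 0.66 and 2.75 ± 0.37 under HDM. Within GINS, the partner of Cdc45, Gins1 rose by 2.34 ± 0.63 and 2.23 ± 0.63 while Gins2 was at 0.22 ± 0.23 and 0.41 ± 0.23 and did not pass. Gins1 was at 3.33 under VEH without normal VEH replicate 2, and Cdc7 at 4.26 under HDM without the 4 libraries of conflicting prefixes. Gins2 shares exon bases with Gse1 on the opposite strand, and Donson, the lowest of the list at -0.29 ± 0.24 and 0.20 ± 0.24, shares them with Son, which had 72323 counts against 6297.

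The 5 genes of fork protection and helicase unloading had medians of 2.44 and 3.96, with 4 and 5 genes called higher. Clspn (claspin), the checkpoint mediator at the fork, rose by 3.33 ± 0.63 and 4.84 ± 0.68, and Lrr1, the receptor of the ligase that unloads the helicase, by 2.44 ± 0.82 and 5.02 ± 0.97, from at most 1.20 CPM in normal lung. Without normal VEH replicate 2 they were at 4.43 and 3.82 under VEH, and the median of the list was 3.82. Timeless was lowest, at 0.49 ± 0.26, which did not pass, and at 0.86 ± 0.26. Of 4 other genes named for MCM, 2 rose under VEH and 3 under HDM. Mcm8, a helicase subunit of recombination, rose by 1.51 ± 0.34 and 1.39 ± 0.34, and Mcmdc2 by 1.48 ± 0.48 and 1.996 ± 0.49, while Mcm9, the partner of Mcm8, was at 0.26 ± 0.19 and 0.33 ± 0.19 and did not pass. Mcmdc2 was at 2.19 under VEH without normal VEH replicate 2.

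Of 13 genes for E2F factors, their DP partners and pocket proteins, 8 rose and 4 fell under VEH, and 8 rose and 3 fell under HDM. E2f8, an atypical repressor that is itself induced at the start of S phase, had the highest values, 3.30 ± 0.93 and 5.01 ± 1.01, and E2f1, an activator, rose by 1.62 ± 0.21 and 1.80 ± 0.21. Tfdp2 fell by 1.26 and 1.01 on the log2 scale and E2f2 by 0.98 and 1.19. Rb1, the retinoblastoma pocket protein, fell by 0.58 and 0.77. Rbl2, the pocket protein of resting cells, was at -0.47 ± 0.11 under VEH, which passed, and at -0.28 ± 0.11 under HDM, which did not (adjusted p 0.0547). Without normal VEH replicate 2 E2f8 was at 5.80 under VEH. Without the 4 libraries of conflicting prefixes only E2f2 of the 4 genes passed as lower under VEH, and Tfdp2, Rb1 and Rbl2 were at -0.97, -0.42 and -0.41.

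The 10 mitotic genes all rose, with medians of 3.29 and 4.14. Values ran from 2.71 ± 0.53 for Cdk1, the mitotic kinase, to 3.46 ± 0.64 for Top2a, the topoisomerase that untangles chromosomes, under VEH. Under HDM they ran from 3.21 ± 0.51 for Cdc20, an activator of the anaphase-promoting complex, to 5.08 ± 0.83 for Ccnb1, the cyclin of Cdk1. Their medians lay above those of the licensing genes under both treatments, and that difference between lists was not tested. Without normal VEH replicate 2 the mitotic median under VEH was 4.44, with Cdk1 at 3.75 and Top2a at 4.74, and that of the licensing genes 2.78. In HDM against VEH, in either tissue and in the interaction, edgeR called 0 of the 50 genes and 0 of the 10, and 2, 2 and 3 of the 50 had an unadjusted p below 0.05 in normal lung, in tumours and in the interaction, as had 2, 0 and 1 of the 10 mitotic genes, where the shares of all genes were 5.54%, 16.7% and 9.39%.

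**Figure D4:**
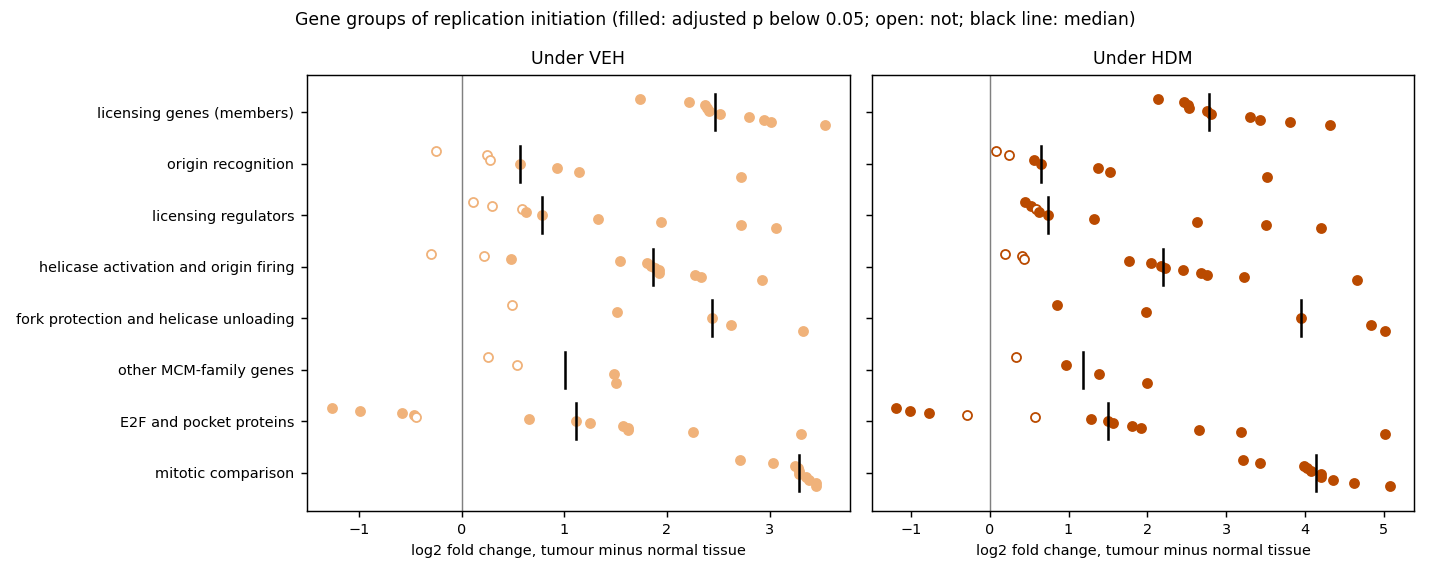
Log2 fold changes of tumour minus normal lung under VEH (left) and HDM (right) for the 10 licensing genes and the 7 comparison lists, with a point for each gene, filled where the edgeR adjusted p was below 0.05, and a black line at the median. The licensing genes have medians of 2.46 and 2.78, origin recognition 0.57 and 0.65, and the mitotic genes 3.29 and 4.14.

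Some of the members share their locus with another gene, which matters because the strand setting of the counting is not given in the sources used here. Mcm7 shares exon bases on the opposite strand with Cops6 (30990 counts against 24722 for Mcm7) and Ap4m1 (10968 counts). These 2 genes had smaller log2 fold changes than Mcm7, at 0.62 ± 0.16 and 0.39 ± 0.14 under VEH and 0.49 ± 0.16 and 0.14 ± 0.14 under HDM. The microRNA genes Mir25, Mir93 and Mir106b lie within Mcm7 and had 0 counts each in this table. Cdc45 shares exon bases with Ufd1 (16038 counts against 7127 for Cdc45), which was at 0.23 ± 0.18 and 0.50 ± 0.18, and with the noncoding genes Gm60408 and Gm52240, which had 672 and 1771 counts and stood at 2.66 ± 0.52 and 2.56 ± 0.40 under VEH. Reads of such pairs cannot be told apart without strand, and the other 8 members overlap no exon of a gene tested. Several pathway genes named above share exon bases with an opposite-strand gene too, among them Orc1 with Prpf38a (8749 counts against 946), Skp2 with Lmbrd2 (14298 against 5544), Mcm8 with Trmt6 (7418 against 1347), Mcmdc2 with Snhg6 (5177 against 736), Ticrr with Kif7 and E2f8 with Gm2788, and their values carry the same limit.

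Mcm4 starts 489 bases from Prkdc, the DNA-dependent protein kinase gene, which is read in the opposite direction. Prkdc was at 0.41 ± 0.25 under VEH (edgeR adjusted p 0.213) and rose by 1.51 ± 0.26 under HDM (adjusted p 0.000953), while Mcm4 was at 1.74 ± 0.16 and 2.13 ± 0.16. In tumours under HDM against VEH, Prkdc was at 1.18 ± 0.26 with an adjusted p of 0.119, and Mcm4 at 0.11 ± 0.16. The difference between the genes of this pair was not tested.

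The genes whose profile was most like the mean of the 10 members were found by the root mean square difference of centred log2 CPM, over 11001 genes that included no member. Over the 12 libraries the closest were Srm at 0.165, Rcc1 at 0.165, Smc2 at 0.170, Mlkl at 0.204 and Mex3a at 0.206, where the members themselves lay at 0.242 (Mcm2) to 0.765 (Mcm10) and the median gene at 1.46. Srm, for example, was at 16.9 to 39.2 CPM in normal libraries and at 122 to 199.8 CPM in tumours. Centred within each group, so that the tissue difference drops out, the closest were Pus7l at 0.104, Aldh18a1 at 0.105, Ncl at 0.112, Pold1 at 0.115 and Aaas at 0.117, where the members lay at 0.139 (Mcm6) to 0.438 (Mcm10) and the median gene at 0.370. A flat profile would lie at 0.298 in this second list. Its closest 5 genes were all highest of the normal libraries in VEH replicate 2, as were the members, and likeness without that library was not computed. No gene was among the closest 5 in both lists. Likeness of this kind is a description over 12 libraries that share depth and composition.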

How the data were processed

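RNA from dissected tumour and normal lung of mice was sequenced as stranded paired-end libraries, per the labels' protocols, with a RIN above 6. The authors deposited 1 table of raw counts per gene, which holds whole numbers with no normalization. The submitters' processing notes name Trim Galore, STAR, featureCounts of Subread and mm39, with no versions; annotation and strand setting are not given in the sources used here, and neither is whether RNA was selected by poly(A) or by depletion of ribosomal RNA. Libraries were put in 4 groups of 3 by the labels for tissue and treatment.

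The members and all gene lists were chosen with earlier results of these data known. Identifiers were matched to GENCODE M39 (78168 of 78298; 0.143% of counts lay in the rest), which also gave coordinates on GRCm39. Counts were fitted in edgeR 4.0.16 under R 4.3.3, with filterByExpr at a minimum count of 10, TMM scaling, 1 robust quasi-likelihood model of the 4 groups over all 12 libraries and 2-sided tests, adjusted by Benjamini-Hochberg over the 22190 genes kept in each of 5 comparisons. DESeq2 1.42.0 was an alternative, and other scalings, filters, blocks and left-out libraries were tried. Leaving libraries out for the pathway and mitotic lists was chosen after seeing the data. Libraries held 20608682 to 32765364 counts, and replicate libraries differed by a chi-square of 39.7 to 366 per gene, so none was a repeat of another. On simulated counts edgeR recovered 6% of 2-fold and 52% of 4-fold changes for HDM against VEH in tumours (21371 genes) and 8% and 56% in normal lung (21397 genes).

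All 10 members are named, along with pathway genes from the lists, always the highest and lowest of each list. Promoters and neighbours were read with Python 3.11.15 and pysam 0.24.0.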

Additional observations from a re-analysis of the deposited data

How the results depend on the processing

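The number of licensing genes called was the same in all alternatives run (16 to 21 a comparison): 10 and 10 for tumour against normal lung under VEH and HDM, and 0 for HDM against VEH in each tissue and for the interaction. All 10 log2 fold changes of tumour against normal lung kept their sign. The small treatment changes, none of them called, did not. In tumours Cdc45 came out at -0.027 with DESeq2 size factors, -0.047 with no low-count filter, -0.039 with a mean count of at least 50, -0.027 with DESeq2's Wald test and -0.0011 with the replicate block. The interaction of Cdt1 came out at -0.043, -0.045, -0.070, -0.048 and -0.16 in the same order. Scaled by library size alone, the tumour changes were 0.028 for Mcm5, 0.028 for Mcm6, 0.019 for Mcm10 and 0.066 for Cdc6. With the library-name prefix as a block, the value was -0.19 for Cdt1 in normal lung, -0.11 for Mcm2, -0.19 for Mcm4, -1.58 for Cdt1 and -0.51 for Cdc45 in tumours, and -0.080 for Mcm5, -0.10 for Mcm7, -0.024 for Mcm10 and -1.38 for Cdt1 in the interaction. Without the 4 libraries of conflicting prefixes, it was 0.057 for Mcm3, 0.35 for Mcm5, 0.13 for Mcm6 and 0.39 for Mcm10 in normal lung, 0.14 for Mcm3, 0.27 for Mcm5, 0.21 for Mcm6, 0.34 for Mcm10 and 0.054 for Cdc6 in tumours, and -0.079 for Mcm5, -0.069 for Mcm7, -0.054 for Mcm10 and -1.39 for Cdt1 in the interaction. In normal lung, leaving out 1 library at a time gave -0.32 to 1.25 for Cdt1, -1.27 to 0.67 for Mcm10, -0.38 to 0.091 for Mcm3, -0.61 to 0.085 for Mcm5 and -0.35 to 0.082 for Mcm6. In tumours it gave -0.13 to 0.11 for Cdc45, -0.18 to 0.16 for Cdc6, -0.34 to 0.23 for Mcm10, -0.043 to 0.19 for Mcm2, -0.23 to 0.074 for Mcm3, -0.0037 to 0.21 for Mcm4, -0.34 to 0.13 for Mcm5 and -0.21 to 0.12 for Mcm6. In the interaction it gave -1.15 to 0.43 for Cdt1, -0.74 to 1.19 for Mcm10, -0.19 to 0.29 for Mcm3, -0.15 to 0.56 for Mcm5, -0.14 to 0.33 for Mcm6 and -0.13 to 0.49 for Mcm7. Leaving out normal VEH replicate 2 gave 10 of the 34 sign changes of that kind. The cause was not tested. In the prefix block the treatments within a tissue were tied only through the 4 libraries of conflicting prefixes.

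Over all genes, counts of calls moved by more than 1.5 times in some fits. For tumour against normal lung under VEH 8624 genes became 5603 without the 4 libraries and 5733 without tumour VEH replicate 1. For HDM against VEH in tumours 21 became 1308 by DESeq2, 52 with no filter, 8 by library size, 33 with counts divided by 2 and rounded (an alternative chosen after seeing the data), 1 with the replicate block, and 0 with only the groups compared, with the prefix block and without the 4 libraries. Leaving out 1 library gave 0 in 5 of 6 fits. DESeq2 called 38 genes in normal lung and 219 in the interaction, where edgeR called 0, or 1 and 6 without normal VEH replicate 1 and tumour HDM replicate 3. Scaling by library size alone moved the median of all genes from -0.11 to 0.03 under VEH and from -0.08 to 0.10 under HDM, and the calls from 4045 higher and 4579 lower to 4797 and 3910, and from 5110 and 6402 to 6161 and 5723. The replicate numbers were not taken as pairing the samples. Of 18 same-numbered pairs 8 had a correlation of deviations over 0.1 (range -0.47 to 0.44), and of 6 prefix pairs 3 did (-0.26 to 0.29). Pairs without a shared number or prefix were not compared, so this check cannot decide whether samples are paired. The replicate block left the members' medians at 2.46, 2.82, -0.34, -0.03 and 0.37 in the order VEH, HDM, normal lung, tumours and interaction. Depth limits Mcm10 most, with as few as 14 counts in a library, and 3 libraries a group limit every treatment comparison.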
